A study of Arabidopsis thaliana with 12 samples.

Results

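The results describe how Arabidopsis thaliana seedlings infiltrated with the bacterium Pseudomonas syringae pv. tomato DC3000 differed from mock-infiltrated seedlings. The genes are all those of the deposited table with a mean of at least 1 FPKM (fragment counts scaled to transcript length and library size) over its 12 libraries, which are 18048 of 20233 genes. The table holds no value of 0, so genes without reads in any 1 library may be missing from it. Of 514 genes in the gene lists used below, 469 were in the table. The DC3000 group and the mock group hold 3 libraries each, so 6 of the 12 libraries carry the comparison. Seedlings were 2 to 3 weeks old, were infiltrated under vacuum and were collected 6 h later, and the labels give leaf as the tissue. DC3000 seedlings received the bacterium alone and mock seedlings neither agent. A further group of 3 libraries, given 10 µM valinomycin and no bacterium, serves below as another point of comparison. Valinomycin is a potassium ionophore made by Streptomyces. The 3 libraries given both agents are not compared here, and enter the level filter, the estimate of the spread and the alternative scalings. The labels used here give no bacterial dose, plant accession, mock solution or time of day.

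DC3000 is a pathogen of tomato and Arabidopsis that grows between leaf cells and injects effector proteins into them through a type III secretion system. It also makes coronatine, a toxin that mimics jasmonoyl-isoleucine, the active form of the wound hormone jasmonate. Jasmonoyl-isoleucine joins the F-box protein COI1 to JAZ repressors, which are then degraded, so that MYC transcription factors are released. In leaves this pathway is known for defence against chewing insects, for antagonism with the hormone salicylate and for the opening of stomata during infection.

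A gene was called at an adjusted p under 0.05 in limma, and "rose" and "fell" below are used of called genes. Of the 18048 genes, 5707 (31.6%) rose in DC3000 relative to mock and 3096 (17.2%) fell, with 2116 (11.7%) and 1145 (6.34%) changed by at least 2-fold. The 3 DC3000 and 3 mock values did not overlap in 55.9% of genes. The median log2 fold change over all genes was 0.18, and it was 0.00 when libraries were rescaled by the median of ratios, which called 4686 genes higher and 4932 lower. It was 0.07 with nuclear genes scaled to 1 total, with 4437 higher and 3703 lower, and 0.08 without mock replicate 3, with 4576 higher and 3580 lower. List medians below can be read against 0.18, and counts within lists against 31.6% higher and 17.2% lower. Chloroplast genes made up 34.5% to 39.8% of the values in DC3000 and 40.9% to 42.7% in mock. Separate plants for each library are not stated in the labels, so the p-values below reflect the variation between these libraries alone, which may be technical. In bulk RNA, fewer cells of a type and less RNA per cell cannot be told apart. Values are listed for replicates 1, 2 and 3 in that order. A parenthesis after a value gives the fitted difference in log2(FPKM + 1), DC3000 minus mock unless the same parenthesis names valinomycin, ± its standard error, with limma's Benjamini-Hochberg adjusted p.

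**Figure D1:**
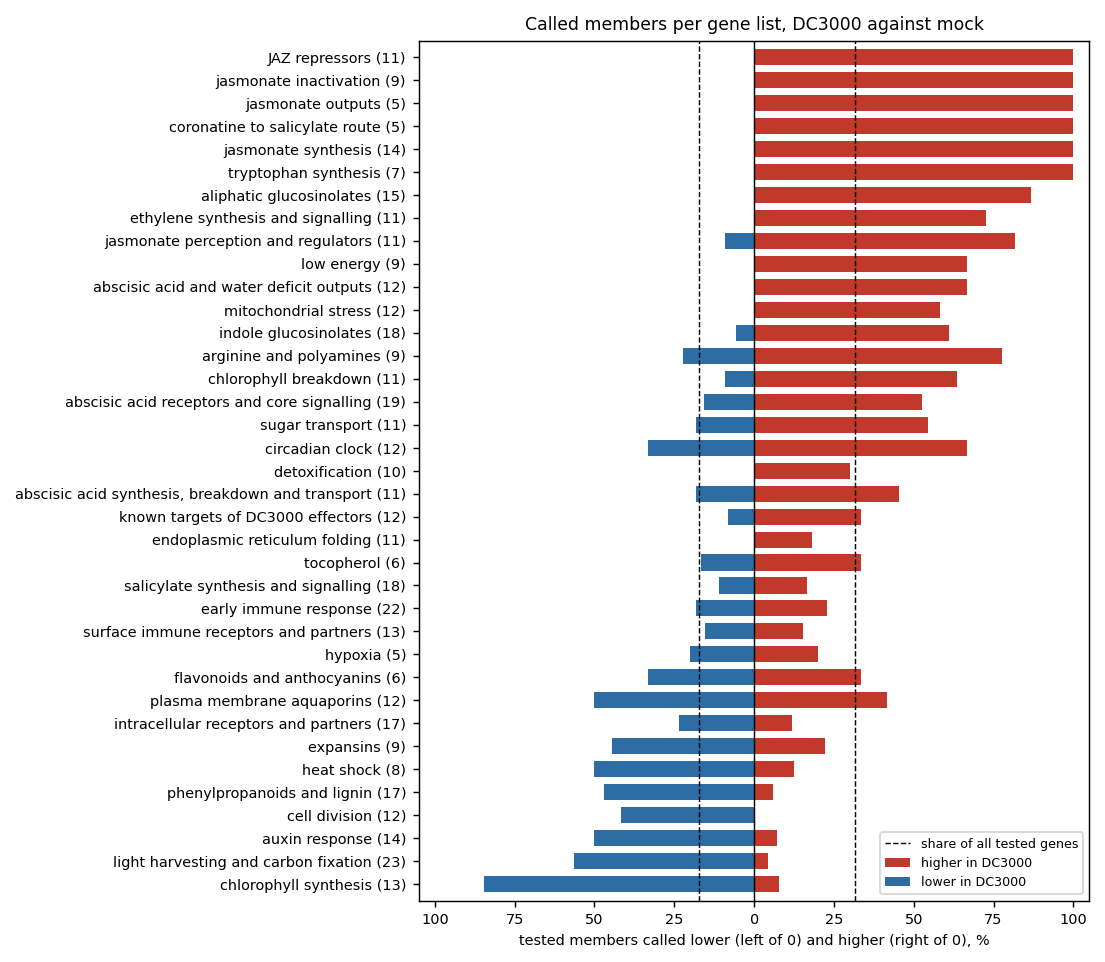
Share of tested members of each gene list that were called higher (red, right of 0) or lower (blue, left of 0) in DC3000 than in mock, in percent, with the number tested in parentheses. The dashed lines mark the shares of all tested genes, 31.6% higher and 17.2% lower. All tested members of the jasmonate synthesis, JAZ, inactivation and output lists were called higher, and chlorophyll synthesis stands at the other end with 11 of 13 called lower.

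Jasmonate is made from a chloroplast fatty acid by lipoxygenases, AOS and the allene oxide cyclases, is finished in peroxisomes and is joined to isoleucine by JAR1. All 14 tested synthesis genes rose, with a median log2 fold change of 3.22, and none of their DC3000 and mock values overlapped. LOX2 (AT3G45140, chr3:16525245-16529352, + strand), the main leaf lipoxygenase of this route, had 1973, 1990.3 and 1094 FPKM in DC3000 and 24.5, 18.5 and 18.0 FPKM in mock. AOS (AT5G42650, chr5:17097564-17099595, - strand), which makes the allene oxide, had 756, 846 and 475 FPKM in DC3000 and 28.5, 25.8 and 24.8 FPKM in mock. AOC1 (AT3G25760, chr3:9403779-9405338, + strand), a cyclase, had 355, 438 and 228 FPKM in DC3000 and 2.63, 1.77 and 2.27 FPKM in mock. In each of these genes DC3000 replicate 3 was the lowest of the 3 DC3000 libraries and still far above every mock library. All 3 rose, LOX2 (6.26 ± 0.23, adjusted p = 6.71e-11), AOS (4.62 ± 0.19, adjusted p = 2.86e-10) and AOC1 (6.69 ± 0.28, adjusted p = 2.54e-10).

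The 4 cyclase genes differed in level. AOC2, the highest of them in DC3000, averaged 551 ± 129 FPKM in DC3000 and 2.15 ± 0.565 FPKM in mock. AOC3 averaged 23.1 ± 5.53 FPKM in DC3000 and 0.726 ± 0.225 FPKM in mock. AOC4 averaged 72.3 ± 15.2 FPKM in DC3000 and 10.7 ± 2.22 FPKM in mock (mean ± SD, n = 3 each, as for all means below). OPR3, the reductase that acts next in the peroxisome, had 260.0, 256 and 171 FPKM in DC3000 and 6.99, 7.48 and 8.89 FPKM in mock (4.69 ± 0.25, adjusted p = 2.62e-09). The fold changes of the late steps were smaller. ACX1 (2.33 ± 0.30, adjusted p = 2e-05), an oxidase of the side chain, KAT2 (1.51 ± 0.17, adjusted p = 4.8e-06), a thiolase, and JAR1 (1.68 ± 0.21, adjusted p = 1.41e-05), the conjugating enzyme, all rose. For these 3 genes no difference between DC3000 and valinomycin was called. ACX1, for example, had 69.0, 82.8 and 59.8 FPKM in DC3000, 127, 107 and 42.5 FPKM in valinomycin and 14.3, 14.0 and 11.1 FPKM in mock (-0.25 ± 0.30, adjusted p = 0.601 against valinomycin), with the valinomycin values on both sides of those of DC3000. LOX6, which has a low level in both groups, was the least changed of the list (0.58 ± 0.19, adjusted p = 0.0174).

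Genes of perception and regulation had smaller fold changes, with a median of 1.06, and 9 of 11 tested genes rose and 1 fell. Over the other settings that tested all 11, between 6 and 9 were called higher and between 0 and 2 lower. COI1, the receptor F-box protein, had 14.2, 18.0 and 13 FPKM in DC3000 and 11.2, 13.4 and 8.85 FPKM in mock, groups that overlap, and its call (0.41 ± 0.16, adjusted p = 0.0494) was lost in 10 of the 15 other settings, the difference being 0.27 without mock replicate 3. MYC2, the leading transcription factor of the pathway, had 172, 170.4 and 102 FPKM in DC3000 and 8.16, 8.14 and 6.76 FPKM in mock (4.07 ± 0.22, adjusted p = 3.27e-09). MYC3 rose (1.28 ± 0.17, adjusted p = 2.64e-05), while MYC4, the closest relative of both, had 7.94, 10.5 and 5.56 FPKM in DC3000 and 13.7, 14.1 and 8.9 FPKM in mock and was called lower (-0.57 ± 0.21, adjusted p = 0.0334), a call that was lost without DC3000 replicate 1 or 3 or without mock replicate 1 or 2. JAM1 (3.03 ± 0.24, adjusted p = 1.71e-07), a related factor that represses jasmonate responses, and NINJA (1.70 ± 0.18, adjusted p = 2.32e-06), the adaptor that links JAZ proteins to corepressors, rose as well. ORA47, an activator of the synthesis genes, averaged 4.26 ± 1.57 FPKM in DC3000 and 0.532 ± 0.115 FPKM in mock (1.74 ± 0.28, adjusted p = 0.000132). DC3000 replicate 3 was the lowest DC3000 library in all 11 genes of the list.

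The JAZ repressors are themselves made in response to jasmonate and restrain it. All 11 tested members rose, with a median log2 fold change of 4.18 and a range of 1.08 to 6.501, and DC3000 replicate 3 was the lowest DC3000 library in each. JAZ1 (AT1G19180, chr1:6621777-6623668, + strand) had 373, 344 and 213 FPKM in DC3000 and 6.91, 5.23 and 4.8 FPKM in mock. JAZ5 (AT1G17380, chr1:5955155-5957511, - strand) had 203, 176 and 99.0 FPKM in DC3000 and 1.4, 0.782 and 2.05 FPKM in mock. JAZ9 (AT1G70700, chr1:26654529-26657350, + strand) had 558, 566 and 322 FPKM in DC3000 and 19.7, 18.8 and 17.7 FPKM in mock. The lowest DC3000 value was more than 10 times the highest mock value in all 3. The differences were largest in JAZ5 (6.02 ± 0.30, adjusted p = 1.32e-09), then JAZ1 (5.52 ± 0.27, adjusted p = 1.32e-09) and JAZ9 (4.57 ± 0.26, adjusted p = 6.64e-09). JAZ7 was near the floor of the table in mock, with 28.1, 32.5 and 14.3 FPKM in DC3000 and 0.577, 0.107 and 0.943 FPKM in mock (4.03 ± 0.30, adjusted p = 8e-08). AT3G22275, annotated as a jasmonate ZIM-domain protein, had 33.9, 32.4 and 8.08 FPKM in DC3000 and 0.447, 0.0857 and 0.144 FPKM in mock, with DC3000 replicate 3 well below the other DC3000 libraries (4.18 ± 0.39, adjusted p = 7.72e-07). JAZ11 (1.08 ± 0.17, adjusted p = 0.000121) and JAZ12 (1.89 ± 0.17, adjusted p = 5.77e-07) changed least, and JAZ12 was the JAZ gene with the highest level in mock, at 134 ± 28.4 FPKM in DC3000 and 35.2 ± 5.53 FPKM in mock. JAZ4 was under 1 FPKM in every DC3000 and mock library and was not tested, and JAZ8 was not analysed here. JAZ10 had the largest rise of the family (6.50 ± 0.28, adjusted p = 3.18e-10).

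The promoters of the jasmonate genes that hold a G-box, the site bound by MYC2, are shown because these genes rose together. They are the 250 bases before the gene start of the RefSeq annotation, read from the TAIR10.1 genome 5′ to 3′ on the gene's strand, and the capitals mark each G-box, CACGTG, which reads the same on both strands. A match describes these letters only and does not show binding. AOS lies at chr5:17099596-17099845 (- strand), ACX1 at chr4:9428896-9429145 (- strand), JAZ2 at chr1:28150447-28150696 (- strand), JAZ3 at chr3:6119457-6119706 (+ strand), JAZ7 at chr2:14572780-14573029 (+ strand) and AT3G22275 at chr3:7879811-7880060 (- strand).
AOS: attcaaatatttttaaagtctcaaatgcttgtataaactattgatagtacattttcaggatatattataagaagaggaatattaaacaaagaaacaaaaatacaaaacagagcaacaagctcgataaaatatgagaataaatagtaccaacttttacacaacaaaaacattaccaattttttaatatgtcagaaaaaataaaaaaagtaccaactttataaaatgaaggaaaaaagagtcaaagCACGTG
ACX1: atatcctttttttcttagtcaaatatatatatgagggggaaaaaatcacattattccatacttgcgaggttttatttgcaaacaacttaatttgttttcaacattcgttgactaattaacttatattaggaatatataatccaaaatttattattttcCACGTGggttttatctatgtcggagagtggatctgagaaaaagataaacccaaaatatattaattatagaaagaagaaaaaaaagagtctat
JAZ2: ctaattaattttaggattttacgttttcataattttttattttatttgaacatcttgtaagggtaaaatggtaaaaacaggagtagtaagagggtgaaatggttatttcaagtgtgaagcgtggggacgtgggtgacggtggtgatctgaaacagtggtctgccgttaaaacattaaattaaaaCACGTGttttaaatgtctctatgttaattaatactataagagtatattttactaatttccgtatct
JAZ3: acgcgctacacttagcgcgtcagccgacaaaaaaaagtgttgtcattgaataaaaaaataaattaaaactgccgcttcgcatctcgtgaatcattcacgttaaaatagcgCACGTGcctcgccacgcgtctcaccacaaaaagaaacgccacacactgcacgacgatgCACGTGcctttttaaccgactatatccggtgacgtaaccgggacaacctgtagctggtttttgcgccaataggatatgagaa
JAZ7: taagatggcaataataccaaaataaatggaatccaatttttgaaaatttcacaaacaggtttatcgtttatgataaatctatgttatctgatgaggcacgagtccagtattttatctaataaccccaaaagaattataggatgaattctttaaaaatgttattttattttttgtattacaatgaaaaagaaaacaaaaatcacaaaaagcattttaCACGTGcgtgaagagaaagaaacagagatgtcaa
AT3G22275: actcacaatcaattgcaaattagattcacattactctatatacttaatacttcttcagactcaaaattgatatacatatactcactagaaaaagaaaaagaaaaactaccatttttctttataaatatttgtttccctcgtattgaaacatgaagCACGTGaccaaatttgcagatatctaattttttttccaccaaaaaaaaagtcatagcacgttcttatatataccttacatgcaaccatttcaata
A G-box stood in 6 of 49 promoters of the 5 jasmonate lists (12.2%), in 4 of 11 JAZ promoters and in 7.35% of 17859 promoters of tested genes. Among genes that rose at least 2-fold the share was 11.03%, and among genes that fell at least 2-fold it was 7.02%. No promoter of the inactivation, output or perception lists held one in this window, and AT2G38240 and CYP94B3, given next, have none.

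Enzymes that remove the hormone had the largest median of the 5 jasmonate lists. All 9 tested inactivation genes rose, with a median log2 fold change of 6.11. CYP94B3, the cytochrome P450 that hydroxylates jasmonoyl-isoleucine, had 131, 115 and 111 FPKM in DC3000 and 0.392, 0.745 and 0.673 FPKM in mock (6.23 ± 0.23, adjusted p = 6.71e-11). AT5G05600, annotated as a 2-oxoglutarate and Fe(II) dependent oxygenase, had 250.2, 258 and 198 FPKM in DC3000 and 1.85, 1.95 and 2.2 FPKM in mock (6.29 ± 0.24, adjusted p = 9.81e-11). AT2G38240, of the same superfamily, had 268, 233 and 217 FPKM in DC3000 and 0.468, 0.948 and 1.013 FPKM in mock (7.06 ± 0.29, adjusted p = 2.3e-10). JRG21, another oxygenase of the superfamily, rose (6.11 ± 0.24, adjusted p = 1.39e-10). ST2A, a sulfotransferase of hydroxylated jasmonate, had 198, 209 and 154 FPKM in DC3000 and 0.725, 1.43 and 0.627 FPKM in mock (6.62 ± 0.21, adjusted p = 2.46e-11). In all 5 genes the mock libraries held at most 3.45 FPKM and the DC3000 libraries at least 111 FPKM. IAR3 and ILL6, amidohydrolases that split amino acid conjugates, had log2 fold changes of 4.77 ± 0.31 and 3.53 ± 0.23.

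**Figure D2:**
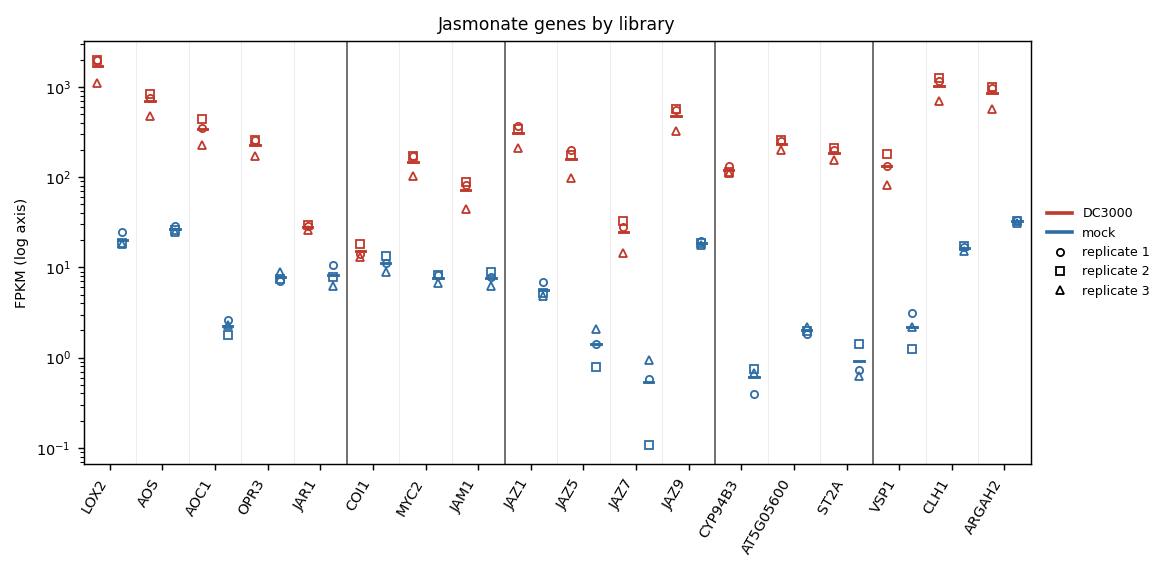
FPKM per library on a log axis for 18 jasmonate genes in DC3000 (red, left) and mock (blue, right), with a marker per replicate and a bar at the mean of 3. Vertical lines separate synthesis, perception and regulators, JAZ repressors, inactivation and outputs, with ARGAH2 of the arginine list placed beside the outputs. COI1 is the gene whose groups overlap, and DC3000 replicate 3 (triangles) lies below the other DC3000 libraries in all 18 genes.

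Of 9 listed downstream outputs 5 were in the deposited table, and all 5 rose. CLH1, a chlorophyllase and classic coronatine-induced gene, had 1149.9, 1242 and 705 FPKM in DC3000 and 16.8, 17.1 and 15.1 FPKM in mock (5.86 ± 0.20, adjusted p = 5.16e-11). VSP1, a vegetative storage protein with acid phosphatase activity, had 133, 182 and 82.7 FPKM in DC3000 and 3.15, 1.24 and 2.16 FPKM in mock (5.36 ± 0.34, adjusted p = 1.63e-08). NSP1, a nitrile-specifier protein that steers glucosinolate breakdown, had 223, 263 and 165 FPKM in DC3000 and 55.2, 54.7 and 43.5 FPKM in mock (2.05 ± 0.17, adjusted p = 2.45e-07), and it shares a near-identical copy with AT3G16410. VSP2, the relative of VSP1, rose (6.78 ± 0.31, adjusted p = 6.38e-10), and NATA1, described with the arginine genes below, rose most of the 5. DC3000 replicate 3 was the lowest DC3000 library in 49 of the 50 tested genes of the 5 jasmonate lists, and in 74.1% of all genes called higher. Without it, the counts of called genes stayed at 14, 11, 9 and 5 for synthesis, JAZ, inactivation and outputs.

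Set against valinomycin, 37 of the 50 jasmonate genes were called higher in DC3000, where 8.18% of all genes were. All 11 JAZ genes, all 9 inactivation genes and all 5 output genes were among them. CLH1 had 1149.9, 1242 and 705 FPKM in DC3000, 17.3, 15.3 and 19.5 FPKM in valinomycin and 16.8, 17.1 and 15.1 FPKM in mock (5.78 ± 0.20, adjusted p = 4.39e-10 against valinomycin). VSP1 had 133, 182 and 82.7 FPKM in DC3000, 2.51, 1.0 and 4.42 FPKM in valinomycin and 3.15, 1.24 and 2.16 FPKM in mock (5.24 ± 0.34, adjusted p = 9.47e-08 against valinomycin). The valinomycin values of these 2 genes lay among or near the mock values. JAZ1 lay between, with 373, 344 and 213 FPKM in DC3000, 94.5, 66.1 and 37.9 FPKM in valinomycin and 6.91, 5.23 and 4.8 FPKM in mock (2.26 ± 0.27, adjusted p = 2.22e-05 against valinomycin).

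Coronatine is known to act on salicylate through the NAC transcription factors NAC019, NAC055 and RD26 (NAC072), which promote the methylation of salicylate and restrain its synthesis. All 5 tested genes of the list made for this route rose. They are the NAC factors, a salicylate glucosyltransferase and a methyl salicylate esterase, which reverses the methylation. NAC019 (AT1G52890, chr1:19696923-19698482, - strand) had 145, 155 and 89.5 FPKM in DC3000 and 0.264, 0.809 and 0.891 FPKM in mock (6.29 ± 0.39, adjusted p = 1.49e-08). NAC055 (AT3G15500, chr3:5234457-5236196, + strand) had 38.2, 38.4 and 24.7 FPKM in DC3000 and 0.176, 0.249 and 0.583 FPKM in mock (4.69 ± 0.30, adjusted p = 1.91e-08). RD26 (AT4G27410, chr4:13707192-13709170, - strand) had 243, 243 and 134 FPKM in DC3000 and 8.27, 14.5 and 8.81 FPKM in mock (4.16 ± 0.27, adjusted p = 1.97e-08). The DC3000 values stood above all mock values in each, by more than 9-fold between the nearest libraries of RD26. UGT74F2, a glucosyltransferase of salicylate, had 32.1, 30.1 and 36.5 FPKM in DC3000, 131, 116 and 48.0 FPKM in valinomycin and 6.42, 12.6 and 4.47 FPKM in mock, so it rose against mock (2.04 ± 0.38, adjusted p = 0.000512) and was lower than in valinomycin (-1.43 ± 0.38, adjusted p = 0.0116 against valinomycin). MES9, a methyl salicylate esterase, rose (1.88 ± 0.21, adjusted p = 4.18e-06). BSMT1, the methyltransferase itself, was not analysed here.

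Of 27 listed salicylate genes 20 were in the deposited table and 18 were tested. Among these 18 genes 3 rose and 2 fell, where 31.6% of all genes rose and 17.2% fell. Their median log2 fold change was 0.15 and turned to -0.01 under median-of-ratios scaling, where 4 were called lower. EDS1, a lipase-like partner of intracellular immune receptors, fell: it had 5.03, 5.63 and 4.52 FPKM in DC3000 and 11.6, 13.2 and 11.5 FPKM in mock (-1.11 ± 0.14, adjusted p = 1.83e-05). ICS1, the isochorismate synthase of salicylate, had 3.18, 2.71 and 2.93 FPKM in DC3000 and 5.05, 4.3 and 3.98 FPKM in mock (-0.46 ± 0.15, adjusted p = 0.0222), a call lost with 6 libraries in the fit and without DC3000 replicate 2 or mock replicate 1. EDS5, the exporter of isochorismate, averaged 4.16 ± 1.29 FPKM in DC3000 and 0.81 ± 0.21 FPKM in mock (1.48 ± 0.22, adjusted p = 7.39e-05). EPS1, the enzyme that releases salicylate from its precursor, averaged 6.22 ± 1.7 FPKM in DC3000 and 2.12 ± 0.436 FPKM in mock (1.19 ± 0.19, adjusted p = 0.000126). GRX480, a glutaredoxin that responds to salicylate, averaged 4.37 ± 1.45 FPKM in DC3000 and 0.226 ± 0.0996 FPKM in mock (2.1003 ± 0.40, adjusted p = 0.000556). The marker PR5 had 1.49, 0.737 and 1.56 FPKM in DC3000 and 2.26, 1.8 and 1.3 FPKM in mock. WRKY70 had 5.07, 6.37 and 4.83 FPKM in DC3000 and 4.57, 5.53 and 3.61 FPKM in mock, and neither was called. PAD4, the partner of EDS1, had 2.84, 2.15 and 2.0 FPKM in DC3000 and 2.75, 3.64 and 3.09 FPKM in mock and was not called (-0.32 ± 0.17, adjusted p = 0.137), but was called lower under median-of-ratios scaling, at -0.49 with an adjusted p of 0.0212. NPR1, the salicylate receptor and coactivator, had 7.38, 7.17 and 6.87 FPKM in DC3000, 17.36, 16.1 and 10.7 FPKM in valinomycin and 5.58, 6.02 and 5.15 FPKM in mock; it was not called against mock (0.31 ± 0.18, adjusted p = 0.171) and was lower than in valinomycin (-0.92 ± 0.18, adjusted p = 0.00129 against valinomycin). PR2 was under the level filter, and PR1 was not analysed here.

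Most surface receptors and early genes of pattern-triggered immunity, which senses molecules such as flagellin, were called lower in DC3000 than in valinomycin. Of 13 tested receptors and partners 2 rose and 2 fell against mock, with 1 to 5 higher over the other settings and a median log2 fold change of 0.20, while 12 were called lower in DC3000 than in valinomycin, where 17.9% of all genes were. FLS2, the flagellin receptor, had 2.15, 2.13 and 3.32 FPKM in DC3000, 22.7, 14.8 and 9.1 FPKM in valinomycin and 1.62, 1.66 and 1.14 FPKM in mock; its difference from mock was not called (0.51 ± 0.24, adjusted p = 0.101), although it was with a pseudocount of 0.1 and with 6 libraries in the fit, and it was lower than in valinomycin (-2.16 ± 0.24, adjusted p = 1.35e-05 against valinomycin). BAK1, its coreceptor, had 13.6, 17.2 and 15.1 FPKM in DC3000, 48.8, 37.4 and 25.1 FPKM in valinomycin and 10.5, 11.6 and 9.46 FPKM in mock (0.50 ± 0.22, adjusted p = 0.0716 against mock and -1.18 ± 0.22, adjusted p = 0.000813 against valinomycin). SOBIR1, the adaptor kinase of receptor-like proteins, was the member that fell most, with 3.36, 3.7 and 4.27 FPKM in DC3000, 59.4, 41.3 and 20.5 FPKM in valinomycin and 15.6, 16.2 and 14.8 FPKM in mock (-1.79 ± 0.29, adjusted p = 0.000131 against mock). DC3000 lay lowest in SOBIR1, with mock between it and valinomycin. BKK1, a relative of BAK1, fell (-0.91 ± 0.23, adjusted p = 0.00437). PBL1, a cytoplasmic kinase below the receptors, had 13.6, 12.7 and 12.6 FPKM in DC3000, 51.8, 48.0 and 27.0 FPKM in valinomycin and 4.48, 3.82 and 3.4 FPKM in mock, so it rose against mock (1.52 ± 0.21, adjusted p = 3.26e-05) and was below valinomycin (-1.58 ± 0.21, adjusted p = 4.72e-05 against valinomycin). BIK1, its close relative, averaged 6.94 ± 0.887 FPKM in DC3000 and 3.41 ± 0.465 FPKM in mock (0.85 ± 0.32, adjusted p = 0.0386), a call lost in 9 of the other settings, including each scaling and each library left out. Within FLS2, BAK1, SOBIR1 and PBL1 the DC3000 and valinomycin values did not overlap.

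**Figure D3:**
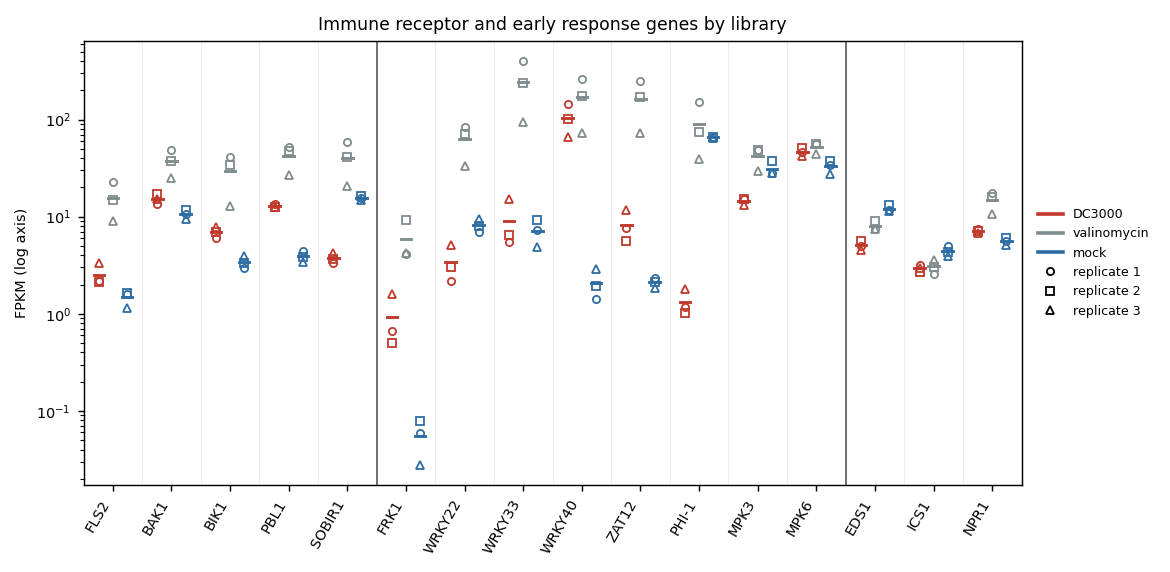
FPKM per library on a log axis for 16 immune genes in DC3000 (red), valinomycin (grey) and mock (blue), with a marker per replicate and a bar at the mean of 3. Vertical lines separate receptors and partners, early response genes and salicylate genes. Valinomycin lies above DC3000 in all 3 libraries for FLS2, BAK1, SOBIR1, WRKY33 and ZAT12, and DC3000 overlaps valinomycin in WRKY40, MPK6 and ICS1.

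Among 22 early immune genes, 5 rose, 4 fell and 16 were below valinomycin, so 9 were called against mock, where 48.8% of all genes were. WRKY33, a transcription factor needed against necrotrophic fungi, had 5.53, 6.5 and 15.2 FPKM in DC3000, 402, 241 and 94.4 FPKM in valinomycin and 7.33, 9.21 and 4.91 FPKM in mock; DC3000 and mock overlapped (0.22 ± 0.49, adjusted p = 0.733), and DC3000 was lower than valinomycin (-4.51 ± 0.49, adjusted p = 9.81e-06 against valinomycin). WRKY40, a repressor of pathogen-induced genes, had 145, 100.3 and 66.0 FPKM in DC3000, 262, 174 and 72.1 FPKM in valinomycin and 1.41, 1.92 and 2.91 FPKM in mock, so it rose against mock (5.05 ± 0.37, adjusted p = 6.73e-08), and no difference from valinomycin was called (-0.59 ± 0.37, adjusted p = 0.279 against valinomycin). PHI-1, annotated as a phosphate-responsive family protein, had 1.19, 1.014 and 1.78 FPKM in DC3000, 153, 75.2 and 39.6 FPKM in valinomycin and 66.0, 66.2 and 64.0 FPKM in mock, and its fall was the largest of the list (-4.85 ± 0.35, adjusted p = 5.59e-08). DC3000 lay below both other groups in every library of PHI-1 and above mock in every library of WRKY40. MPK3, an immune kinase, averaged 14.6 ± 1.1 FPKM in DC3000 and 31.0 ± 5.22 FPKM in mock and fell (-1.03 ± 0.19, adjusted p = 0.000412). MPK6, its partner, averaged 46.5 ± 4.62 FPKM in DC3000 and 32.9 ± 5.33 FPKM in mock (0.49 ± 0.15, adjusted p = 0.0155), a call lost with nuclear total scaling and without DC3000 replicate 2 or mock replicate 3. MKK9, a kinase above them, rose (2.57 ± 0.30, adjusted p = 6.84e-06). Transcription factors and reporters of the response differed among themselves. ZAT12, a zinc finger factor of oxidative stress, had 7.56, 5.62 and 11.6 FPKM in DC3000, 251, 169.8 and 72.2 FPKM in valinomycin and 2.34, 2.14 and 1.85 FPKM in mock (1.53 ± 0.36, adjusted p = 0.0028 against mock). FRK1, the usual reporter of flagellin sensing, had 0.665, 0.505 and 1.62 FPKM in DC3000, 4.17, 9.34 and 4.22 FPKM in valinomycin and 0.0594, 0.0789 and 0.028 FPKM in mock, and its call against mock (0.83 ± 0.28, adjusted p = 0.0243) was lost at pseudocount 4, without DC3000 replicate 3 and without any 1 mock library. WRKY22, a factor of the same response, averaged 3.45 ± 1.51 FPKM in DC3000 and 8.16 ± 1.21 FPKM in mock (-1.09 ± 0.34, adjusted p = 0.0159), a call lost at pseudocount 4 and without DC3000 replicate 1 or mock replicate 3. Without mock replicate 3 the list had 3 genes called higher, and with 6 libraries in the fit it had 8. PMR4, the callose synthase of the wall response, fell (-0.82 ± 0.17, adjusted p = 0.00132).

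Intracellular receptors, which sense effectors, were listed with their partners, and most of the list was likewise below valinomycin. Of 17 tested genes 2 rose and 4 fell against mock, where 31.6% of all genes rose and 17.2% fell. Of the 17, 14 were below valinomycin, where 17.9% of all genes were. AT5G66900, a CC-NBS-LRR protein, averaged 2.75 ± 0.163 FPKM in DC3000 and 6.36 ± 0.488 FPKM in mock and fell (-0.97 ± 0.16, adjusted p = 0.000194), while its neighbour of the same class, AT5G66910, averaged 3.55 ± 0.292 FPKM in DC3000 and 1.67 ± 0.579 FPKM in mock and rose (0.79 ± 0.18, adjusted p = 0.00209). RPM1, the receptor that guards RIN4, averaged 0.836 ± 0.172 FPKM in DC3000 and 2.36 ± 0.368 FPKM in mock (-0.87 ± 0.23, adjusted p = 0.00557); it overlaps an exon of a gene on its own strand, so its reads may be shared. The DC3000 values of AT5G66900 and RPM1 lay below all mock values. ZAR1, a receptor that forms a membrane channel on activation, had 9.2, 9.22 and 11.7 FPKM in DC3000, 55.7, 39.7 and 25.3 FPKM in valinomycin and 14.3, 18.3 and 17.8 FPKM in mock (-0.69 ± 0.23, adjusted p = 0.0241 against mock), a call lost when any of 4 libraries was left out. RIN4, a target of several effectors, averaged 16.7 ± 1.16 FPKM in DC3000 and 11.6 ± 3.03 FPKM in mock (0.51 ± 0.20, adjusted p = 0.0443), and its call was lost in 8 settings, both scalings among them. SUMM2, which overlaps an exon on its own strand, averaged 1.48 ± 0.243 FPKM in DC3000 and 2.73 ± 0.514 FPKM in mock (-0.58 ± 0.20, adjusted p = 0.0257), and this call was lost when any of 4 libraries was left out. Under median-of-ratios scaling 7 genes of the list were called lower, and without DC3000 replicate 2 or mock replicate 2 there were 2.

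Of 12 known targets of DC3000 effectors, 4 rose and 1 fell, where 31.6% of all genes rose and 17.2% fell. Only 2 rose without DC3000 replicate 2, without mock replicate 3 or under nuclear total scaling, and 2 fell under median-of-ratios scaling. GRP7, an RNA-binding protein that the effector HopU1 modifies, had the largest change of these, with 871, 1175 and 1345 FPKM in DC3000, 992, 1348 and 1535 FPKM in valinomycin and 56.6, 55.3 and 65.9 FPKM in mock (4.21 ± 0.18, adjusted p = 4.05e-10 against mock). Every DC3000 value stood at more than 13 times the highest mock value, and the DC3000 values overlapped those of valinomycin (-0.19 ± 0.18, adjusted p = 0.496 against valinomycin). GRP7 is also a known output of the circadian clock, whose genes moved in the same libraries, and the part of the clock in this value was not tested. NTL9, a membrane-bound NAC factor bound by the effector HopD1, rose (0.93 ± 0.14, adjusted p = 6.47e-05). The remaining called members were MPK3, MPK6 and RIN4, given above.

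Abscisic acid, the hormone of water deficit, is another pathway that DC3000 is known to raise. Of 11 genes of synthesis, breakdown and transport 5 rose and 2 fell, where 31.6% of all genes rose and 17.2% fell. The count that rose was 3 without DC3000 replicate 2 or mock replicate 3. NCED3, the rate-limiting dioxygenase of synthesis, had 7.74, 10.3 and 3.78 FPKM in DC3000 and 0.807, 0.909 and 0.292 FPKM in mock (2.24 ± 0.27, adjusted p = 9.01e-06). ABA1, the epoxidase of an earlier step, fell (-0.55 ± 0.14, adjusted p = 0.0053), and CYP707A1, a breakdown hydroxylase, rose (1.13 ± 0.22, adjusted p = 0.000665). ABA3, which supplies the cofactor of AAO3, rose (0.66 ± 0.17, adjusted p = 0.00451), as did CYP707A4 (0.67 ± 0.21, adjusted p = 0.0157), a second hydroxylase whose call was lost when any of 4 libraries was left out. AAO3, the last oxidase, rose (0.62 ± 0.21, adjusted p = 0.0257), a call lost in 6 settings, and ABA2, a dehydrogenase, fell (-0.46 ± 0.17, adjusted p = 0.0343), a call lost with 6 libraries in the fit and with 5 of the 6 libraries left out in turn. The hormone exporter of the plasma membrane, ABCG25, and the importer ABCG40 were not called, the second at 0.25, 0.272 and 0.332 FPKM in DC3000, 8.53, 9.4 and 3.59 FPKM in valinomycin and 0.51, 0.158 and 0.19 FPKM in mock.

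Among 19 receptors and core signalling genes 10 rose and 3 fell. ABI1, a phosphatase that restrains the pathway and is induced by it, had 104, 109 and 55.3 FPKM in DC3000 and 7.61, 9.42 and 4.99 FPKM in mock (3.42 ± 0.27, adjusted p = 1.18e-07). ABF1, a bZIP factor of abscisic acid response, averaged 27.8 ± 2.61 FPKM in DC3000 and 2.16 ± 0.466 FPKM in mock (3.19 ± 0.19, adjusted p = 9.1e-09). HAI2, a phosphatase related to ABI1, rose (1.74 ± 0.42, adjusted p = 0.00347). The receptors split. PYL7 (2.33 ± 0.28, adjusted p = 9.99e-06) and PYL8 (1.99 ± 0.18, adjusted p = 4.27e-07) rose, whereas PYL1 (-1.03 ± 0.16, adjusted p = 9.92e-05) and PYL4 (-1.02 ± 0.21, adjusted p = 0.000991) fell. OST1, the kinase that the pathway activates in guard cells, averaged 4.86 ± 0.93 FPKM in DC3000 and 9.62 ± 1.64 FPKM in mock and fell (-0.86 ± 0.18, adjusted p = 0.0013). HAI1, another phosphatase, had 14.3, 14.2 and 5.82 FPKM in DC3000 and 4.16, 8.8 and 5.89 FPKM in mock, was not called (0.73 ± 0.38, adjusted p = 0.121), and was called with 6 libraries in the fit and, at 1.12, without DC3000 replicate 3.

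Of 12 water deficit outputs 8 rose and none fell at a median log2 fold change of 1.64. RD20, a calcium-binding lipid droplet protein, had 463, 473 and 244 FPKM in DC3000 and 17.5, 29.4 and 12.5 FPKM in mock (4.27 ± 0.35, adjusted p = 2.35e-07). COR15A, a chloroplast protein of cold tolerance, had 1176, 1235 and 510.0 FPKM in DC3000 and 99.6, 191 and 109 FPKM in mock (2.82 ± 0.31, adjusted p = 4.15e-06). P5CS1, the proline synthesis enzyme, had 292, 301 and 192 FPKM in DC3000 and 59.5, 70.5 and 24 FPKM in mock (2.44 ± 0.31, adjusted p = 1.61e-05). In all 3 genes DC3000 replicate 3 was the lowest DC3000 library and the groups did not overlap. RD29A rose (2.60 ± 0.35, adjusted p = 3.13e-05), and so did KIN1 (1.92 ± 0.49, adjusted p = 0.00457), although its groups overlapped. KIN1 had 149, 147 and 75.6 FPKM in DC3000 and 25.6, 89.7 and 11.9 FPKM in mock, with mock replicate 2 above DC3000 replicate 3. RD29B had 0.721, 21.6 and 5.76 FPKM in DC3000 and 7.82, 15.8 and 4.5 FPKM in mock and was not called, with values that spread widely within both groups. RD20, COR15A and P5CS1 also stood above valinomycin, with differences of 3.34 ± 0.35, 2.17 ± 0.31 and 2.64 ± 0.31.

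Ethylene genes rose in 8 of 11 tested cases and none was called lower, against 1 called lower under either scaling and 2 with 6 libraries in the fit or without DC3000 replicate 3. The receptors ETR2 (1.13 ± 0.15, adjusted p = 2.63e-05) and ERS1 (0.82 ± 0.16, adjusted p = 0.000665), the transcription factor EIN3 (0.93 ± 0.17, adjusted p = 0.000493) and the F-box protein EBF2 that degrades it (1.402 ± 0.20, adjusted p = 5.07e-05) all rose. Among synthesis enzymes, ACS8 averaged 2.33 ± 0.895 FPKM in DC3000 and 0.567 ± 0.222 FPKM in mock and rose (1.06 ± 0.20, adjusted p = 0.000519). ACS6, which immune kinases stabilise, had 1.67, 1.94 and 4.55 FPKM in DC3000, 87.7, 50.2 and 14.7 FPKM in valinomycin and 6.2, 5.91 and 5.84 FPKM in mock, with DC3000 below mock in all libraries but no call (-0.99 ± 0.48, adjusted p = 0.0988), and it lay below valinomycin (-3.56 ± 0.48, adjusted p = 5.55e-05 against valinomycin).

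Tryptophan and its sulfur-rich products, the indole glucosinolates, are defence chemistry under MYC and MYB control. All 7 tested tryptophan genes rose, with a median log2 fold change of 2.04. ASA1, the first enzyme, had 62.0, 61.7 and 47.4 FPKM in DC3000 and 7.36, 7.71 and 6.99 FPKM in mock (2.79 ± 0.16, adjusted p = 7.49e-09). TSB1, the last, had 145, 138 and 98.4 FPKM in DC3000 and 21.7, 24.8 and 22.6 FPKM in mock (2.40 ± 0.17, adjusted p = 5.83e-08). AT2G04400 (2.04 ± 0.17, adjusted p = 2.71e-07), annotated as indole-3-glycerol phosphate synthase, TSA1 (2.07 ± 0.19, adjusted p = 5.91e-07) and PAT1 (1.88 ± 0.21, adjusted p = 5.15e-06), enzymes of the steps between, rose as well. The 3 DC3000 values of each of these genes lay above the 3 mock values. Of 18 indole glucosinolate genes 11 rose and 1 fell. GGP1, which cleaves a glutathione conjugate in the core pathway, had 372, 417 and 224 FPKM in DC3000 and 29.5, 37.4 and 25.7 FPKM in mock (3.38 ± 0.23, adjusted p = 3.44e-08). CYP79B3 (2.09 ± 0.24, adjusted p = 5.15e-06), which turns tryptophan into its oxime, and CYP81F4 (2.05 ± 0.26, adjusted p = 1.82e-05), which modifies the indole ring, rose too. CYP79B2, the partner of CYP79B3, rose by a like amount (1.77 ± 0.26, adjusted p = 5.5e-05).

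The MYB regulators of this pathway went opposite ways. MYB34 had 74.7, 67.9 and 34.1 FPKM in DC3000, 4.79, 6.75 and 10.8 FPKM in valinomycin and 10.4, 11.9 and 7.22 FPKM in mock and rose (2.41 ± 0.29, adjusted p = 1.07e-05). MYB51 had 1.32, 1.34 and 1.16 FPKM in DC3000, 10.2, 12 and 9.39 FPKM in valinomycin and 3.68, 4.99 and 3.28 FPKM in mock and fell (-1.12 ± 0.19, adjusted p = 0.000188). DC3000 minus valinomycin was 2.81 ± 0.29 for MYB34 and -2.33 ± 0.19 for MYB51, and neither gene overlapped valinomycin. Genes that serve the cell wall response to microbes also lay below valinomycin. PEN2, an atypical myrosinase, had 14.9, 17.3 and 24.6 FPKM in DC3000, 164, 134 and 68.9 FPKM in valinomycin and 16.5, 20.3 and 14.3 FPKM in mock. CYP81F2 had 0.266, 0.284 and 1.23 FPKM in DC3000, 16.1, 10.7 and 5.67 FPKM in valinomycin and 1.21, 0.833 and 0.907 FPKM in mock. PEN3, an exporter, had 24.2, 26.4 and 29.8 FPKM in DC3000, 299, 207 and 98.3 FPKM in valinomycin and 17.8, 15.9 and 13 FPKM in mock. None of these 3 was called against mock. The differences from valinomycin were -2.57 ± 0.28 (adjusted p = 1.08e-05) for PEN2, -2.84 ± 0.30 (adjusted p = 7.4e-06) for CYP81F2 and -2.73 ± 0.31 (adjusted p = 1.23e-05) for PEN3. PAD3, the last enzyme of the antimicrobial camalexin, had 0.722, 0.744 and 1.21 FPKM in DC3000, 24.3, 25.6 and 12.1 FPKM in valinomycin and 0.282, 0.165 and 0.185 FPKM in mock; it was not called against mock (0.64 ± 0.29, adjusted p = 0.0794) but was with 6 libraries in the fit and with a pseudocount of 0.1, at 1.66. GSTF6, a glutathione transferase of the camalexin route, rose, with 42.4, 55.9 and 136 FPKM in DC3000, 556, 560.4 and 246 FPKM in valinomycin and 7.71, 6.29 and 3.42 FPKM in mock (3.41 ± 0.40, adjusted p = 8.36e-06 against mock), and DC3000 replicate 3 was its highest DC3000 library.

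Aliphatic glucosinolates, made from methionine, rose in 13 of 15 tested genes, where 31.6% of all genes did, with a median log2 fold change of 1.52. Of the 15, 13 were above valinomycin, where 8.18% of all genes were. Relative to the mock mean, the list's median difference in log2(FPKM + 1) was -0.53, -0.69 and 0.15 in valinomycin replicates 1, 2 and 3. CYP79F1, the oxime-forming P450, had 34.5, 37.5 and 23.7 FPKM in DC3000, 1.25, 1.45 and 7.06 FPKM in valinomycin and 7.06, 6.68 and 3.0 FPKM in mock (2.36 ± 0.40, adjusted p = 0.000231 against mock). MAM1, the chain elongation synthase, had 103, 118 and 85.4 FPKM in DC3000, 14.3, 14.9 and 33.0 FPKM in valinomycin and 25, 23.8 and 15.4 FPKM in mock (2.22 ± 0.27, adjusted p = 1.01e-05). BAT5, a transporter of chloroplasts, averaged 11.4 ± 4.0 FPKM in DC3000 and 1.73 ± 0.405 FPKM in mock (2.14 ± 0.23, adjusted p = 2.83e-06). IMD1, a dehydrogenase of chain elongation, averaged 69.5 ± 16.0 FPKM in DC3000 and 15.4 ± 2.98 FPKM in mock (2.097 ± 0.25, adjusted p = 7.32e-06). SOT18, a sulfotransferase that overlaps an exon on its own strand, averaged 49.5 ± 11.7 FPKM in DC3000 and 11.2 ± 2.43 FPKM in mock (2.05 ± 0.23, adjusted p = 4.22e-06). All DC3000 values of these genes lay above mock, and valinomycin replicate 3 was the highest valinomycin library of CYP79F1 and MAM1. Of the MYB regulators, MYB29 (1.52 ± 0.33, adjusted p = 0.00154) and MYB76 (1.89 ± 0.26, adjusted p = 3.97e-05) rose and MYB28 was not called (0.24 ± 0.25, adjusted p = 0.448).

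Arginine is broken down by arginases or turned into polyamines, and its branches changed unequally, with 7 of 9 genes higher and 2 lower. ARGAH2, the jasmonate-responsive arginase, had 966, 1011 and 573 FPKM in DC3000, 28.5, 25.4 and 23.45 FPKM in valinomycin and 33.7, 33.0 and 31.0 FPKM in mock (4.62 ± 0.21, adjusted p = 6.58e-10 against mock), while ARGAH1, the other arginase, rose (0.43 ± 0.15, adjusted p = 0.0331). ADC1, an arginine decarboxylase, had 8.21, 8.6 and 10.2 FPKM in DC3000 and 37.5, 40.9 and 29.3 FPKM in mock and fell (-1.87 ± 0.18, adjusted p = 8.69e-07). ADC2 averaged 74.5 ± 4.66 FPKM in DC3000 and 42.7 ± 11.7 FPKM in mock and rose (0.82 ± 0.23, adjusted p = 0.00776). The DC3000 values of ADC1 lay below mock and those of ADC2 above it. SAMDC, the decarboxylase that feeds spermidine synthesis, had 226, 226 and 234 FPKM in DC3000 and 825, 864 and 803 FPKM in mock and fell (-1.86 ± 0.21, adjusted p = 5.23e-06). AT5G15950, a second enzyme of the same family that is outside the list, had 2.11, 2.33 and 2.47 FPKM in DC3000 and 73.9, 79.6 and 50.4 FPKM in mock (-4.36 ± 0.22, adjusted p = 1.99e-09). The spermidine synthase SPDS1 rose (0.92 ± 0.16, adjusted p = 0.000215). NATA1, which acetylates ornithine, rose (7.02 ± 0.20, adjusted p = 1.32e-11).

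Genes of chlorophyll breakdown were mostly called higher and those of its synthesis mostly lower. Of 11 breakdown genes 7 rose and 1 fell. PPH, which removes the phytol tail, had 72.0, 66.6 and 45.6 FPKM in DC3000 and 12.1, 12.3 and 8.91 FPKM in mock (2.35 ± 0.18, adjusted p = 9.96e-08). NYC1, which reduces chlorophyll b, had 69.3, 56.2 and 57.0 FPKM in DC3000 and 14.9, 17.0 and 12.1 FPKM in mock (1.99 ± 0.17, adjusted p = 3.39e-07). PAO, the ring-opening oxygenase, had 52.2, 52.3 and 37.8 FPKM in DC3000 and 10.2, 10.3 and 7.87 FPKM in mock (2.201 ± 0.16, adjusted p = 8.25e-08), although PAO overlaps an exon of a gene on its own strand. AT1G44000, a STAY-GREEN-like protein, went the other way with 37.5, 38.4 and 33.1 FPKM in DC3000 and 111, 137 and 109 FPKM in mock (-1.68 ± 0.15, adjusted p = 4e-07). ORE1, a NAC factor of leaf senescence, had 16.7, 14.8 and 12.6 FPKM in DC3000 and 1.13, 0.988 and 0.326 FPKM in mock (3.14 ± 0.21, adjusted p = 2.25e-08). NAP, another factor of this kind, averaged 11.8 ± 4.56 FPKM in DC3000 and 6.16 ± 1.94 FPKM in mock (0.81 ± 0.29, adjusted p = 0.0331), a call lost in 6 settings.

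Of 13 chlorophyll synthesis genes 11 fell and 1 rose. CHLH, a subunit of magnesium chelatase, had 113, 94.3 and 95.2 FPKM in DC3000, 118, 103 and 132 FPKM in valinomycin and 476, 457 and 386 FPKM in mock (-2.11 ± 0.14, adjusted p = 2.28e-08 against mock). CAO (-1.33 ± 0.18, adjusted p = 3.65e-05), which makes chlorophyll b, and GUN4 (-1.10 ± 0.19, adjusted p = 0.000312), a chelatase regulator, fell. CHLI1, another chelatase subunit, fell as well (-1.01 ± 0.19, adjusted p = 0.00048). PORB, a light-dependent reductase, rose, with 450.3, 372 and 381 FPKM in DC3000, 294, 410.2 and 555 FPKM in valinomycin and 115, 127 and 91.6 FPKM in mock (1.85 ± 0.21, adjusted p = 4.85e-06). In CHLH, CAO, GUN4 and PORB the DC3000 and valinomycin values overlapped, and no difference between them was called.

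Of 23 light harvesting and carbon fixation genes 13 fell and 1 rose. The small subunit gene of Rubisco RBCS1A had 4857, 4860.3 and 3843 FPKM in DC3000 and 9742, 9213 and 8817 FPKM in mock (-1.04 ± 0.14, adjusted p = 3.12e-05). RCA, the activase, had 1018, 989.6 and 1024 FPKM in DC3000 and 3508, 3335 and 3033 FPKM in mock (-1.70 ± 0.13, adjusted p = 8.77e-08). LHCB2.3, an antenna protein, had 174, 165 and 195 FPKM in DC3000 and 937, 927 and 843 FPKM in mock (-2.34 ± 0.20, adjusted p = 3.12e-07), and LHCB2.2 fell (-1.06 ± 0.15, adjusted p = 4.85e-05). LHCB1.5 was the 1 that rose (0.58 ± 0.16, adjusted p = 0.00659), and it was not called under median-of-ratios scaling. RBCS1B (-1.75 ± 0.15, adjusted p = 2.37e-07) and RBCS2B (-1.22 ± 0.15, adjusted p = 1.28e-05) fell, and RBCS2B has a near-identical copy in RBCS3B. The 4 LHCA genes, which serve photosystem I, were not called.

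The leaf mesophyll markers are photosynthesis genes as well, and 3 of 4 fell. Their summed level ran from 8148 to 9766 FPKM in DC3000 and from 16097 to 16975 FPKM in mock. CA1, a carbonic anhydrase, fell (-1.65 ± 0.14, adjusted p = 2.44e-07), and it overlaps an exon on its own strand. Of 5 tested guard cell markers 1 fell, AT1G22690, with 7.47, 9.22 and 15.8 FPKM in DC3000 and 44.5, 52.3 and 39.9 FPKM in mock, and none rose. The 6 guard cell markers in the deposited table, AT1G22690 among them, summed to 41.3 to 43.8 FPKM in DC3000 and 59.8 to 82.1 FPKM in mock. The median log2 fold change of the 5 tested was 0.03. MYB60, a guard cell factor, had 10.3, 9.85 and 9.29 FPKM in DC3000 and 9.99, 11.9 and 7.38 FPKM in mock. Of 4 markers of meristem and epidermis 3 fell, among them FDH, a wax synthesis enzyme of the epidermis (-1.63 ± 0.14, adjusted p = 3.51e-07), and the summed level was 118 to 151 FPKM in DC3000 and 270.0 to 418 FPKM in mock. The others were PDF1 (-1.31 ± 0.21, adjusted p = 0.000123) and ATML1 (-1.01 ± 0.18, adjusted p = 0.000295), genes of the outer cell layer, while STM, a meristem factor, rose (0.44 ± 0.17, adjusted p = 0.0379), a call lost in 7 settings, both scalings among them. Of 5 phloem and xylem markers 1 rose and 2 fell (APL higher, 0.57 ± 0.15, adjusted p = 0.00493; XCP1, -0.71 ± 0.22, adjusted p = 0.0155, and SUC2 lower), and their sum was 75.9 to 88.3 FPKM in DC3000 and 80.8 to 93.6 FPKM in mock. Of 5 root markers CASP1 alone had a value, under 1 FPKM in every DC3000 and mock library, and the other 4 were not analysed here. The part of these cell types in the photosynthesis values was not tested.

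Genes of the circadian clock moved in all 12 tested cases, 8 higher and 4 lower, with every DC3000 value outside the range of mock. The clock pairs morning factors with evening genes that they repress. LHY, the partner of CCA1, fell (-6.88 ± 0.38, adjusted p = 4.23e-09), and GI, an evening gene, rose (3.79 ± 0.15, adjusted p = 1.26e-10). CCA1, a morning MYB factor, had 3.1, 4.09 and 4.36 FPKM in DC3000, 35.1, 20.13 and 10.9 FPKM in valinomycin and 208, 197 and 147 FPKM in mock (-5.25 ± 0.29, adjusted p = 4.82e-09 against mock). RVE8, an activator of evening genes, had 3.34, 2.87 and 2.35 FPKM in DC3000, 14.9, 8.61 and 5.21 FPKM in valinomycin and 66.5, 66.8 and 44.4 FPKM in mock (-3.95 ± 0.27, adjusted p = 3.96e-08). Mock replicate 3 was the lowest mock library in both. Of the evening genes, PRR5 had 63.6, 62.9 and 44.1 FPKM in DC3000, 39.7, 43.7 and 43.0 FPKM in valinomycin and 0.732, 0.692 and 0.535 FPKM in mock (5.11 ± 0.15, adjusted p = 1.32e-11). LUX, part of the evening complex, had 27.4, 30.2 and 26.9 FPKM in DC3000, 38.1, 35.9 and 29.6 FPKM in valinomycin and 1.92, 2.23 and 2.69 FPKM in mock (3.16 ± 0.14, adjusted p = 6.22e-10). TOC1 had 27.0, 27.2 and 24.9 FPKM in DC3000, 44.0, 39.0 and 36.0 FPKM in valinomycin and 4.23, 4.92 and 3.52 FPKM in mock (2.40 ± 0.15, adjusted p = 1.49e-08). ELF4 (3.46 ± 0.19, adjusted p = 3.63e-09) and PRR3 (3.40 ± 0.19, adjusted p = 6.33e-09) rose, and PRR9, a gene of the morning, fell (-1.41 ± 0.21, adjusted p = 8.01e-05). For PRR7, PRR5, PRR3, LUX, GI and ELF3 no difference between DC3000 and valinomycin was called, while LHY, CCA1, RVE8, PRR9, TOC1 and ELF4 were called lower in DC3000 than in valinomycin. The labels do not give the time of day of each collection, and its part in these values was not tested.

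Promoters with an evening element, AAAATATCT, the site that morning MYB factors bind, are shown for the 3 clock genes that hold it, and capitals mark the element as it reads on the gene's strand or, where it lies on the other strand, its complement read 5′ to 3′ on the gene's strand. PRR5 lies at chr5:8358547-8358796 (- strand), LUX at chr3:17182792-17183041 (+ strand) and TOC1 at chr5:24674713-24674962 (+ strand), again in TAIR10.1 from RefSeq.
PRR5: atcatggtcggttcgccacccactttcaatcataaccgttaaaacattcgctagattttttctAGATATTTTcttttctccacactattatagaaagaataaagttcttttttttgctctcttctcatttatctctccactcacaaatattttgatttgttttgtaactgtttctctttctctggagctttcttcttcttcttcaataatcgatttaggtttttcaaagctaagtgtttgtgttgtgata
LUX: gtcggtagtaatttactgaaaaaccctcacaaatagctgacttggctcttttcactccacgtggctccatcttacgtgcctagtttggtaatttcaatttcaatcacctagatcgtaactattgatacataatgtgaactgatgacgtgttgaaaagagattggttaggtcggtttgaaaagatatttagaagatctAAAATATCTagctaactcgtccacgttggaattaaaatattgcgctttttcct
TOC1: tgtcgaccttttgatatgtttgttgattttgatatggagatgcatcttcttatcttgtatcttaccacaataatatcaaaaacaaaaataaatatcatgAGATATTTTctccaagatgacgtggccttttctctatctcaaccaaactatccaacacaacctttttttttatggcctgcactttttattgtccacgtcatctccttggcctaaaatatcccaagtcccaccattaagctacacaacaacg
All 3 genes rose. The element stood in 3 of 12 clock promoters (25%), in 2.53% of all promoters, in 5.87% of those of genes that rose at least 2-fold and in 1.32% of those of genes that fell at least 2-fold. Genes with clock-driven levels may lie in any list above, and their part in those lists was not tested.

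**Figure D4:**
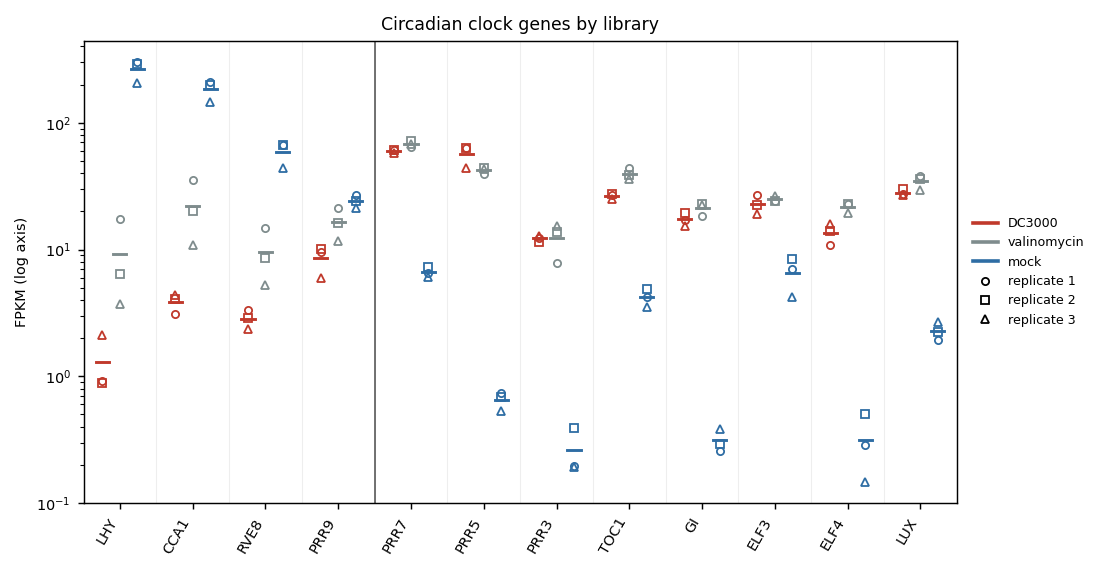
FPKM per library on a log axis for 12 circadian clock genes in DC3000 (red), valinomycin (grey) and mock (blue), with a marker per replicate and a bar at the mean of 3. The vertical line separates the 4 genes that fell against mock from the 8 that rose. DC3000 and valinomycin both lie above mock in the 8 genes on the right, and DC3000 lies below valinomycin in LHY, CCA1, RVE8, PRR9, TOC1 and ELF4.

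Phenylpropanoid genes, which lead to lignin, fell in 8 of 17 cases and rose in 1, and the other 8 were not called. CAD4 and CAD5, related alcohol dehydrogenases of the last step, changed in opposite directions. CAD4 had 14.0, 14.4 and 16.2 FPKM in DC3000, 16.5, 17.59 and 18.7 FPKM in valinomycin and 59.3, 61.5 and 47.8 FPKM in mock (-1.85 ± 0.14, adjusted p = 7.13e-08). CAD5 had 40.8, 37.8 and 54.8 FPKM in DC3000, 49.3, 54.7 and 33.2 FPKM in valinomycin and 14.7, 16.3 and 13.3 FPKM in mock (1.51 ± 0.22, adjusted p = 6.52e-05). PAL2 (-1.44 ± 0.19, adjusted p = 1.91e-05), PAL3 (-1.22 ± 0.17, adjusted p = 3.26e-05) and PAL4 (-1.34 ± 0.18, adjusted p = 2.39e-05), of the entry enzyme, fell, while PAL1 was not called (0.31 ± 0.17, adjusted p = 0.14). Of 6 flavonoid genes 2 rose and 2 fell, where 31.6% of all genes rose and 17.2% fell. The count called higher was 4 without DC3000 replicate 3 and 1 in 7 other settings. F3H, an early hydroxylase, had 2.29, 2.58 and 1.36 FPKM in DC3000 and 20.5, 17.2 and 15.8 FPKM in mock and fell (-2.63 ± 0.18, adjusted p = 4.14e-08), and DFR, which leads to anthocyanins, fell (-1.20 ± 0.27, adjusted p = 0.00198). PAP1, the MYB activator of anthocyanin genes, had 14.2, 16.1 and 10 FPKM in DC3000, 0.514, 0.382 and 1.45 FPKM in valinomycin and 1.54, 1.015 and 0.686 FPKM in mock and rose (2.79 ± 0.23, adjusted p = 2.62e-07). CHS, the first enzyme, had 31.7, 43.5 and 12.1 FPKM in DC3000, 0.721, 0.339 and 1.41 FPKM in valinomycin and 11.6, 11.2 and 11.2 FPKM in mock; its call against mock (1.11 ± 0.38, adjusted p = 0.0263) was lost at pseudocount 0.1, under either scaling and in 5 of 6 cases with a library left out, and it stood above valinomycin (3.92 ± 0.38, adjusted p = 3.79e-06 against valinomycin). In tocopherol synthesis VTE2, which commits the pathway, rose (1.88 ± 0.21, adjusted p = 4.41e-06), HPPD, which makes its ring, rose (0.79 ± 0.21, adjusted p = 0.00701), and VTE3, a methyltransferase, fell (-1.10 ± 0.15, adjusted p = 3.45e-05).

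Sugar transport genes rose in 6 of 11 cases and fell in 2, where 31.6% of all genes rose and 17.2% fell. SWEET12, a sucrose exporter of leaf veins, had 49.7, 58.8 and 48.9 FPKM in DC3000, 23.8, 32.9 and 30.9 FPKM in valinomycin and 3.97, 4.3 and 3.6 FPKM in mock (3.43 ± 0.15, adjusted p = 4.12e-10 against mock). STP13, a hexose importer known for sugar competition with bacteria, had 63.1, 58.4 and 53.0 FPKM in DC3000, 176, 144 and 47.2 FPKM in valinomycin and 2.22, 3.4 and 0.855 FPKM in mock (4.31 ± 0.39, adjusted p = 5.01e-07). DC3000 lay above mock in every library of both. SWEET4 (2.02 ± 0.32, adjusted p = 0.000138) and SWEET17 (1.59 ± 0.21, adjusted p = 2.19e-05) rose, and SWEET11, the close relative of SWEET12, was not called (0.28 ± 0.17, adjusted p = 0.194). CWINV1, the cell wall invertase, had 14.6, 19.0 and 34.1 FPKM in DC3000, 91.6, 97.6 and 55.8 FPKM in valinomycin and 9.45, 8.12 and 7.37 FPKM in mock (1.26 ± 0.28, adjusted p = 0.00173). STP1, a hexose importer, had 49.0, 52.7 and 87.5 FPKM in DC3000 and 86.4, 115 and 109 FPKM in mock; it fell (-0.74 ± 0.20, adjusted p = 0.00658) although DC3000 replicate 3 lay above mock replicate 1. SUC2, the phloem loader, averaged 15.3 ± 2.23 FPKM in DC3000 and 22.5 ± 3.16 FPKM in mock (-0.53 ± 0.18, adjusted p = 0.027), a call lost when any of 4 libraries was left out.

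Auxin, expansins, aquaporins and cell division stand for growth here, and their counts stand beside 31.6% of all genes that rose and 17.2% that fell. Of 14 auxin response genes 7 fell and 1 rose. IAA3, an Aux/IAA repressor, had 11.1, 10.9 and 12.2 FPKM in DC3000, 15.7, 22.8 and 24.2 FPKM in valinomycin and 53.3, 71.8 and 51.9 FPKM in mock (-2.26 ± 0.19, adjusted p = 2.36e-07 against mock). IAA17 had 4.3, 5.7 and 4.95 FPKM in DC3000, 8.94, 7.7 and 7.71 FPKM in valinomycin and 18.8, 19.6 and 18.9 FPKM in mock (-1.75 ± 0.14, adjusted p = 1.86e-07). IAA19 had 2.36, 1.49 and 4.62 FPKM in DC3000, 6.33, 6.48 and 10.6 FPKM in valinomycin and 11, 13.1 and 16.1 FPKM in mock (-1.98 ± 0.27, adjusted p = 3.43e-05). DC3000 lay below mock and valinomycin in all libraries of these 3 genes. GH3.3, which conjugates auxin, rose (1.64 ± 0.36, adjusted p = 0.00186). IAA14, a further Aux/IAA gene, fell (-1.47 ± 0.20, adjusted p = 3.49e-05). Of 9 expansins, which loosen walls, 4 fell and 2 rose. EXPA10 had 149.8, 146 and 87.2 FPKM in DC3000, 21.0, 16.5 and 11.9 FPKM in valinomycin and 14.7, 12.8 and 9.48 FPKM in mock and rose (3.25 ± 0.23, adjusted p = 4.07e-08). EXPA15 averaged 2.07 ± 0.417 FPKM in DC3000 and 7.18 ± 1.46 FPKM in mock and fell (-1.41 ± 0.19, adjusted p = 3.69e-05). EXPA3 (1.33 ± 0.24, adjusted p = 0.000406) rose, while EXPA5 (-1.40 ± 0.20, adjusted p = 4.21e-05) and EXPA6 (-1.30 ± 0.25, adjusted p = 0.000567) fell. Of 12 plasma membrane aquaporins 5 rose and 6 fell. PIP2;3, a water channel, had 119, 155 and 77.6 FPKM in DC3000 and 34.4, 29.8 and 25.6 FPKM in mock and rose (1.89 ± 0.30, adjusted p = 0.000142). PIP1;3 had 151, 175 and 175 FPKM in DC3000 and 374, 374 and 300.2 FPKM in mock and fell (-1.06 ± 0.13, adjusted p = 1.29e-05). The others that rose were PIP2;2 (1.299 ± 0.23, adjusted p = 0.000341), PIP1;1 (1.23 ± 0.19, adjusted p = 0.000114), PIP1;4 (1.05 ± 0.23, adjusted p = 0.00153) and PIP2;5 (0.93 ± 0.16, adjusted p = 0.000206).

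Of 12 cell division genes 5 fell and none rose, and 8 were lower under median-of-ratios scaling and 3 without mock replicate 1. KNOLLE, the syntaxin of cell plate formation, had 21.0, 22.1 and 14.8 FPKM in DC3000 and 40.2, 52.0 and 33.2 FPKM in mock (-1.07 ± 0.24, adjusted p = 0.0022). HIK, a kinesin of the same process, averaged 3.83 ± 1.23 FPKM in DC3000 and 7.45 ± 0.922 FPKM in mock (-0.84 ± 0.24, adjusted p = 0.00873). CYCB1;2, a mitotic cyclin, fell (-0.89 ± 0.22, adjusted p = 0.00398). CYCB1;1 (-0.70 ± 0.21, adjusted p = 0.0133) and CDC20.2 (-0.55 ± 0.19, adjusted p = 0.0272), an activator of mitotic exit with a near-identical copy in CDC20.1, fell too. The call of CYCB1;1 was lost without DC3000 replicate 1 or mock replicate 1, and that of CDC20.2 without DC3000 replicate 3 or mock replicate 1 or 2.

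Mitochondrial stress genes, a list chosen with earlier results of these data known, mostly lay below valinomycin. Of 12 tested genes 9 were called lower in DC3000 than in valinomycin, where 17.9% of all genes were. Against mock 7 rose, where 31.6% of all genes did. The count was 4 at pseudocount 4, under median-of-ratios scaling or without DC3000 replicate 2 or mock replicate 3. AOX1A, the alternative oxidase, had 13.3, 17.1 and 12.9 FPKM in DC3000, 359.7, 276 and 114 FPKM in valinomycin and 4.76, 4.81 and 3.54 FPKM in mock (1.52 ± 0.32, adjusted p = 0.0013 against mock and -3.88 ± 0.32, adjusted p = 9.05e-07 against valinomycin). AT2G21640, annotated as a marker for oxidative stress response, had 8.8, 7.16 and 5.98 FPKM in DC3000, 233, 213 and 121 FPKM in valinomycin and 0.849, 2.65 and 2.69 FPKM in mock (1.496 ± 0.27, adjusted p = 0.000394). SOT12, a sulfotransferase that acts on salicylate, had 27.7, 29.7 and 22.5 FPKM in DC3000, 884, 569.5 and 207 FPKM in valinomycin and 8.04, 12.9 and 7.7 FPKM in mock (1.42 ± 0.38, adjusted p = 0.00689). In these 3 genes every DC3000 value lay above mock and below valinomycin. NDB2, a partner of the alternative oxidase, rose (1.53 ± 0.30, adjusted p = 0.000801). UGT74E2, a glycosyltransferase of this response, rose as well (1.22 ± 0.42, adjusted p = 0.0254), a call lost in 5 settings.

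Heat shock genes fell in 4 of 8 cases and 1 rose. HSFA2, a heat shock factor, had 0.55, 0.685 and 2.39 FPKM in DC3000, 61.5, 39.7 and 16.5 FPKM in valinomycin and 18.16, 10.8 and 12.7 FPKM in mock (-2.82 ± 0.40, adjusted p = 4.18e-05 against mock and -4.10 ± 0.40, adjusted p = 3.46e-06 against valinomycin). HSP101, a disaggregase, had 2.46, 3.57 and 3.36 FPKM in DC3000, 74.2, 50.1 and 27.4 FPKM in valinomycin and 16.7, 14.4 and 13.3 FPKM in mock (-1.94 ± 0.27, adjusted p = 4.3e-05). MBF1C, a coactivator, had 14.9, 17.3 and 13.8 FPKM in DC3000, 81.3, 48.8 and 42.7 FPKM in valinomycin and 75.5, 70.3 and 71.3 FPKM in mock (-2.17 ± 0.21, adjusted p = 1.01e-06). DC3000 lay below mock and valinomycin in each library of these 3 genes. HSP17.6II, a small heat shock protein, averaged 2.43 ± 0.685 FPKM in DC3000 and 0.388 ± 0.186 FPKM in mock (1.296 ± 0.24, adjusted p = 0.000504). HSP70, a chaperone, fell (-1.20 ± 0.29, adjusted p = 0.00342). In the endoplasmic reticulum folding list 2 of 11 rose, where 31.6% of all genes did. They were the disulfide isomerase PDIL1-1 (1.21 ± 0.19, adjusted p = 0.000135) and the folding factor SDF2 (0.69 ± 0.18, adjusted p = 0.00545). BZIP60, the splicing-activated regulator of that response, had 15.8, 15.1 and 13.3 FPKM in DC3000, 196, 129 and 57.8 FPKM in valinomycin and 18.7, 24.5 and 19.6 FPKM in mock and was not called against mock (-0.47 ± 0.34, adjusted p = 0.259).

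Low energy genes, which report sugar shortage, rose in 6 of 9 cases and none fell, where 31.6% of all genes rose. Of the 9, 7 were called below valinomycin, where 17.9% of all genes were. BCAT2, an aminotransferase of branched-chain amino acids, had 32.2, 36.7 and 57.9 FPKM in DC3000, 113, 81.9 and 39.9 FPKM in valinomycin and 2.16, 1.96 and 0.762 FPKM in mock (4.04 ± 0.32, adjusted p = 1.57e-07). DIN1, a dark-induced gene, had 157, 134 and 394 FPKM in DC3000, 627, 605 and 348 FPKM in valinomycin and 17.5, 21.6 and 26.5 FPKM in mock (3.17 ± 0.33, adjusted p = 2.39e-06). ASN1, asparagine synthetase, had 209, 239.8 and 202 FPKM in DC3000, 336, 272 and 127 FPKM in valinomycin and 29.3, 34.0 and 35.4 FPKM in mock (2.68 ± 0.26, adjusted p = 9.69e-07). DC3000 replicate 3 was the highest DC3000 library in BCAT2 and DIN1. IVD (2.07 ± 0.23, adjusted p = 4.99e-06) and DIN4 (0.79 ± 0.20, adjusted p = 0.00402), which break down branched-chain amino acids, rose too. Of 5 tested hypoxia genes PDC2, a pyruvate decarboxylase, rose, with 59.8, 60.1 and 48.0 FPKM in DC3000, 33.4, 40 and 30.4 FPKM in valinomycin and 0.944, 0.624 and 0.893 FPKM in mock (4.97 ± 0.16, adjusted p = 2.46e-11), and ADH1 was not called (0.21 ± 0.20, adjusted p = 0.415). HRA1, a repressor of the hypoxia response, fell (-0.41 ± 0.15, adjusted p = 0.038), a call lost in 6 settings. Of the 5 hypoxia genes, 4 were called below valinomycin and 1 above it. GSTU4 had 60.1, 46.8 and 38.2 FPKM in DC3000, 69.4, 45.5 and 29.3 FPKM in valinomycin and 3.6, 2.15 and 0.888 FPKM in mock (4.01 ± 0.32, adjusted p = 1.4e-07). GSTU19 averaged 419.6 ± 69.9 FPKM in DC3000 and 175 ± 45.5 FPKM in mock (1.28 ± 0.28, adjusted p = 0.00181), and both, like GSTU20, are glutathione transferases among the 3 of 10 detoxification genes that rose. GSTU20 averaged 98.0 ± 25.8 FPKM in DC3000 and 51.2 ± 15 FPKM in mock (0.93 ± 0.32, adjusted p = 0.0251), a call lost under either scaling and without DC3000 replicate 1 or 2 or mock replicate 3. The 3 of 10 detoxification genes that rose stand beside 31.6% of all genes. Of the 10, 8 were called below valinomycin and 1 above it.

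**Figure D5:**
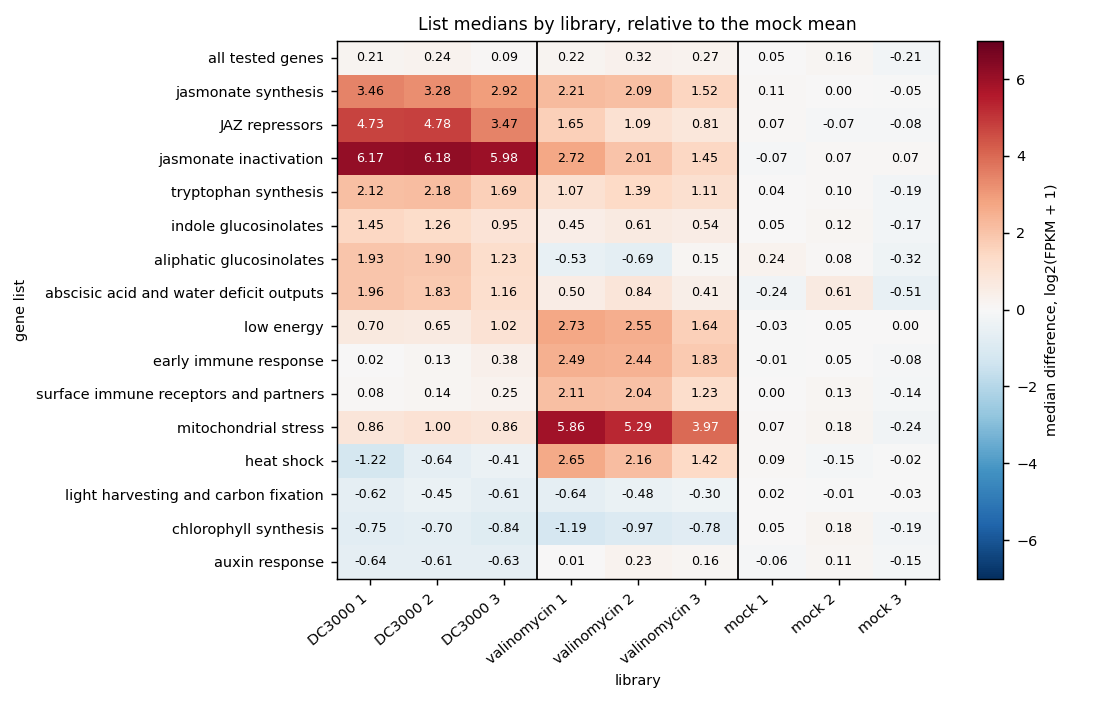
Median over the tested members of 15 gene lists, and over all tested genes, of log2(FPKM + 1) in each DC3000, valinomycin and mock library minus the mean of the mock libraries. The jasmonate and aliphatic glucosinolate lists are highest in DC3000, and the early immune, mitochondrial stress and heat shock lists are highest in valinomycin. DC3000 replicate 3 is paler than the other DC3000 libraries in the jasmonate rows.

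Outside the lists, the largest rises in DC3000 held RAP2.6 (AT1G43160, chr1:16263805-16264945, + strand), an ethylene response factor family member, with 438, 384 and 289 FPKM in DC3000, 76.4, 50.8 and 19.1 FPKM in valinomycin and 2.15, 8.18 and 0.812 FPKM in mock (6.61 ± 0.50, adjusted p = 8.36e-08). NUDT8 (AT5G47240, chr5:19183523-19185644, + strand), a nudix hydrolase, had 185, 208 and 102 FPKM in DC3000, 14.8, 19.6 and 20.3 FPKM in valinomycin and 1.08, 0.873 and 0.794 FPKM in mock (6.38 ± 0.23, adjusted p = 6.66e-11). AT5G62360 (chr5:25040540-25041504, + strand), a member of the invertase and pectin methylesterase inhibitor superfamily, had 128, 136 and 87.3 FPKM in DC3000, 26.1, 33.8 and 33.9 FPKM in valinomycin and 0.709, 0.184 and 0.378 FPKM in mock (6.36 ± 0.18, adjusted p = 1.32e-11). All 3 also exceeded valinomycin, with differences of 3.08 ± 0.50 for RAP2.6, 3.06 ± 0.23 for NUDT8 and 1.85 ± 0.18 for AT5G62360. AT1G53903 (6.84 ± 0.27, adjusted p = 1.73e-10) and AT1G53885 (6.71 ± 0.23, adjusted p = 4.07e-11), annotated as putative linoleate 9S-lipoxygenase-4 proteins, rose as well and are near-identical copies of each other. The largest falls held BMY3 (AT5G18670, chr5:6225956-6228195, + strand), a beta-amylase, with 2.2, 2.41 and 3.73 FPKM in DC3000, 11.6, 6.62 and 4.91 FPKM in valinomycin and 150.4, 138 and 138 FPKM in mock (-5.26 ± 0.23, adjusted p = 4.69e-10). COL2 (AT3G02380, chr3:487069-489467, - strand), a relative of the flowering factor CONSTANS, had 3.55, 3.92 and 2.88 FPKM in DC3000, 4.99, 4.21 and 5.03 FPKM in valinomycin and 140.4, 153 and 110.1 FPKM in mock (-4.92 ± 0.16, adjusted p = 2.46e-11). COL2 did not differ from valinomycin by a called amount (-0.37 ± 0.16, adjusted p = 0.0971 against valinomycin). EXLA1, an expansin-like protein, had 4.17, 2.39 and 7.55 FPKM in DC3000, 34.0, 20.197 and 21.4 FPKM in valinomycin and 115, 142 and 129.9 FPKM in mock (-4.61 ± 0.27, adjusted p = 8.22e-09). FLA9, a fasciclin-like arabinogalactan protein, had 11.4, 10.8 and 18.0 FPKM in DC3000, 51.7, 44.6 and 56.5 FPKM in valinomycin and 277, 251 and 225 FPKM in mock (-4.16 ± 0.19, adjusted p = 6.91e-10). HYH, a light signalling bZIP factor, had 4.22, 5.48 and 8.31 FPKM in DC3000, 43.9, 25.7 and 18.3 FPKM in valinomycin and 119, 133 and 94.8 FPKM in mock (-4.09 ± 0.29, adjusted p = 4.38e-08). In all of these falls the 3 DC3000 values lay below every valinomycin value. That they lay below every mock value was a condition of their choice. AT2G15020, an uncharacterized protein, was under 1 FPKM in each DC3000 library, with 0.435, 0.579 and 0.535 FPKM in DC3000 and 51.1, 49.3 and 48.4 FPKM in mock (-5.06 ± 0.17, adjusted p = 4.07e-11). The other falls among the 12 largest were AT1G65490 (-5.45 ± 0.39), an uncharacterized protein, and AT1G64500 (-4.95 ± 0.22), a glutaredoxin family protein.

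Against valinomycin, XTH18, a xyloglucan-modifying wall enzyme, was the gene most below it among those called in both comparisons with a higher group mean of at least 9.64 FPKM, with 1.57, 1.88 and 5.04 FPKM in DC3000, 211, 157 and 60.3 FPKM in valinomycin and 9.83, 15.2 and 17.5 FPKM in mock (-5.16 ± 0.40, adjusted p = 5.82e-07 against valinomycin). PGL5, a 6-phosphogluconolactonase, was among the genes most above it, with 333, 455 and 175 FPKM in DC3000, 5.33, 4.39 and 6.34 FPKM in valinomycin and 11.9, 11.7 and 10.3 FPKM in mock (5.57 ± 0.29, adjusted p = 2.1e-08 against valinomycin). DC3000 values lay below all mock values in XTH18 and above them in PGL5. AT3G45730 (-4.19 ± 0.26, adjusted p = 5.99e-08 against valinomycin), an uncharacterized protein, and AT5G04175 (-4.07 ± 0.48, adjusted p = 1.95e-05 against valinomycin), annotated as other RNA, were below valinomycin and mock, and the call of AT5G04175 against mock was lost when any of 3 libraries was left out.

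Of the genes given with values above, 59 overlap exons of a gene on the opposite strand, and the sources used here do not say whether counting used strand, so their reads cannot be told from those of the partner: COI1, MYC2, ORA47, AT3G22275, JAZ12, JAZ10, UGT74F2, EDS5, NPR1, FLS2, BAK1, SOBIR1, WRKY33, WRKY40, MPK3, MPK6, FRK1, ZAR1, AAO3, ABA2, ABI1, ABF1, PYL7, P5CS1, ERS1, EBF2, ASA1, AT2G04400, PAT1, CYP81F4, IMD1, SPDS1, CAO, GUN4, CHLI1, PORB, RCA, LHCB2.3, LHCB1.5, AT1G22690, XCP1, LUX, F3H, CHS, HPPD, VTE3, STP1, IAA3, KNOLLE, HSP101, MBF1C, BCAT2, ASN1, DIN4, ADH1, BMY3, COL2, EXLA1 and AT5G04175.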

How the data were processed

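Per the labels' protocols, RNA came from the RNeasy Plant Mini kit and sequencing libraries from the CORALL total RNA-seq kit. Per the submitters' processing notes, TAIR10 served as the genome build. Not given in the sources used here are the aligner, the quantifier and any use of strand. The authors deposited a table of normalized values that no label or header names a unit for, and it is treated as FPKM because the scatter of low values falls with transcript length, as it does for values per length, so depth is unknown and no counting intervals are given. Values per library summed to between 1115904 and 1350272 in DC3000 and between 1121535 and 1264782 in mock, and mock replicate 3 had a median of 4.62 where mock replicates 1 and 2 had 5.84 and 6.32.

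Genes averaging 1 FPKM or more over the 12 libraries were tested on log2(FPKM + 1) with limma 3.58.1 in R 4.3.3 (trended empirical Bayes, all 4 groups sharing the spread, Benjamini-Hochberg adjustment over 18048 genes, call at 0.05). The pseudocount understates fold changes of low genes. The script was tested on simulated data.

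The text names the 12 largest rises and falls among called genes whose groups do not overlap and whose higher mean reaches 9.64 FPKM, up to 5 called members of each list (or the 2 with the highest mean where fewer than 2 are called), fixed markers, members that moved against their list, and the 6 genes at each end of the comparison with valinomycin. The members and the 44 lists were chosen with earlier results of these data known. Some further genes, such as NPR1, BAK1, ACS6, PEN2, LUX and TOC1, were named after their values were seen.

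Symbols, products, coordinates and promoters come from RefSeq's TAIR10.1 annotation and genome, which holds each of the 20054 nuclear loci tabulated; no promoter table was used. Gene overlaps were found with bedtools 2.31.1 and near-identical copies with blastn 2.17.0. Alternatives tried were other pseudocounts, filters, scalings and limma settings, 6 libraries alone, a replicate block and each library left out.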

Additional observations from a re-analysis of the deposited data

How the results depend on the processing

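Of 217 named genes called in DC3000 against mock, 24 lost the call in at least 1 setting, 173 were called in the same direction in every setting tried, 20 were so in every setting but a filter at a mean of 5 that left them untested, and 0 changed direction. Median-of-ratios scaling raised the genes called lower against mock to 4932, against 3096 as deposited, and the genes called higher than valinomycin to 2567, against 1477. With 1 library left out, genes called against mock ranged between 4518 and 6202 higher and between 2453 and 3580 lower. Against valinomycin they ranged between 977 and 1679 higher and between 2423 and 3376 lower, with 977 when DC3000 replicate 2 was left out. The replicate numbers were not treated as pairs in the main fit. Deviations from the group means correlated at 0.03, -0.01 and 0.12 between same-numbered DC3000 and mock libraries. With 3 libraries per group these values cannot exclude a pairing. With the replicate block 5986 genes were higher and 3129 lower than in mock, and 1566 higher and 3511 lower than in valinomycin. Counts within lists were recomputed under these settings after seeing the data. Leaving aside the filter at a mean of 5, which tests fewer members, 6 of the 33 counts of 4 or more moved by more than 1.5 times in at least 1 of the other 14 settings: early immune, effector target, abscisic acid synthesis and mitochondrial stress genes called higher, and intracellular receptor and cell division genes called lower. A further 20 counts under 4 did so too. The median of the salicylate list changed sign under median-of-ratios scaling (-0.01), and under that scaling the guard cell markers, with a median of 0.03, turned to -0.17 and the hypoxia list, with 0.03, to -0.14. Both were also below 0 under nuclear total scaling (-0.09 and -0.07), as were the guard cell markers without mock replicate 3 (-0.14) and hypoxia without mock replicate 2 (-0.05). Without DC3000 replicate 1 the guard cell median was -0.002, and that of endoplasmic reticulum folding turned from -0.01 to 0.02. With the filter at a mean of 5 the salicylate median was -0.16 over 9 genes. The abscisic acid synthesis median, 0.23 in the main fit, was then -0.17 over 6 genes. The cause of these shifts was not tested. The depth of the libraries is unknown, so no limit for low genes can be given.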

Other observations

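The W-box, the site of WRKY factors, was searched as TTGACC or TTGACT on both strands of the 250 bases before the gene start. It stood in 27.6% of all promoters of tested genes. Among the lists, it stood in 8 of 10 detoxification promoters, 10 of 13 of surface receptors and partners, 5 of 7 of tryptophan synthesis, 13 of 22 of the early immune list, 7 of 12 of mitochondrial stress and 8 of 14 of auxin response. Among genes that rose at least 2-fold in DC3000 relative to mock the share was 25.6%, and among genes that fell at least 2-fold it was 29.6%. The salicylate list had it in 5 of 18 promoters and the intracellular receptors and partners in 5 of 17. JAZ repressors had it in 2 of 11 and jasmonate perception and regulators in 0 of 10.

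The abscisic acid response element, searched as ACGTGGC or ACGTGTC, whose letters can overlap the G-box, stood in 7.37% of all promoters. Among the lists with a share of at least 25%, it stood in 3 of 5 hypoxia promoters, 7 of 12 clock promoters and 5 of 11 of abscisic acid synthesis. The others were endoplasmic reticulum folding (5 of 11), the coronatine to salicylate list (2 of 5), light harvesting and carbon fixation (7 of 23), auxin response (4 of 14) and water deficit outputs (3 of 12). In the 5 jasmonate lists it stood in 0 of 49 promoters. The G-box stood in 3 of 5 hypoxia promoters, 3 of 6 flavonoid promoters, 5 of 12 clock promoters and 4 of 11 promoters each of the JAZ, abscisic acid synthesis and endoplasmic reticulum folding lists, against 7.35% of all promoters. A match describes letters in this window and no binding.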
